A study of Mus musculus with 4 samples.

Results

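The regions described here are narrow stretches of H3K4me3 in mouse embryonic forebrain whose surroundings on both sides held little H3K36me3. They numbered 1132 of the 7992 H3K4me3 regions found on chromosomes 1 to 19, or 14.2% (exact binomial 95% interval 13.4 to 14.9). An H3K4me3 region was a run of 1 kb bins with at least 20 tags of the H3K4me3 ChIP and a ratio of at least 4 over its own input, merged over gaps of at most 1 bin. The ratio was the ChIP count plus 1 over the input count times 3.027 plus 1, where 3.027 equalises the library totals. For each region the same kind of ratio was taken for H3K36me3, with its input scaled by 0.453, in the stretches from 1 to 11 kb beyond either edge, which are called flanks below. The members were the regions of 1 to 3 kb in which both flank ratios were under 1. They were therefore selected on measured H3K4me3 inside and measured H3K36me3 in the flanks, and those values are given as a description, with no test.

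H3K4me3, trimethylation of lysine 4 on histone H3, marks promoters, both those in use and those held in a poised state. H3K36me3, trimethylation of lysine 36, is laid down over the bodies of genes as RNA polymerase II transcribes them, so a transcribed gene typically carries H3K4me3 at its start and H3K36me3 downstream of it. An H3K4me3 region with H3K36me3 on 1 side is the usual picture of a transcribed promoter. Sites with H3K4me3 and no neighbouring H3K36me3 can be poised or weakly used promoters, short genes, or sites in other open chromatin, and the 2 marks alone do not tell these apart.

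The tissue was forebrain of embryos of the outbred CD1 mouse at 11.5 days post coitum. The labels name no transgene or treatment. The dissected tissue was pooled, with 36 forebrain pieces for a ChIP library, so cell types of the forebrain were not separated. Crosslinking used 1% formaldehyde, and shearing used 12 sonication pulses, each 30 seconds long. The groups were the H3K4me3 ChIP (10 microlitres of antibody), its input, the H3K36me3 ChIP (15 microlitres) and its input, each with 1 library. The H3K4me3 ChIP and its input went through 8 cycles of whole-genome amplification and the H3K36me3 pair did not, so the mark and the amplification cannot be told apart. There was no spread between replicates to measure: every test below compares tags of libraries rather than conditions, intervals cover counting error, and regions are not replicates of anything.

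The libraries held 7606197 tags (H3K4me3 ChIP), 2513019 (its amplified input), 10466543 (H3K36me3 ChIP) and 23110768 (its unamplified input). Over the 2368.04 Mb of chromosomes 1 to 19 with input coverage this came to 3.09, 1.03, 4.35 and 9.51 tags per kb. The amplified input was the thinnest, so a 1 kb bin held about 1 of its tags. All positions are in the mouse build mm8, counted from 1, and no sequence or gene annotation of that build was used here. Regions are therefore named by position, and whether they lie in a gene, exon, intron or UTR was not analysed here.

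The remaining narrow regions, which serve as the comparison, divided into 4681 with 1 flank ratio of at least 1 and 1903 with both. A further 276 regions were wider than 3 kb. The members made up 14.7% of all narrow regions. Together they spanned 1.554 Mb and held 57735 H3K4me3 ChIP tags, 9.25% of the tags in all H3K4me3 regions.

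The flanks of members carried a median of 14 H3K36me3 ChIP tags against 105 input tags on the side of lower coordinate, and 14.5 against 107 on the other side. The median flank ratios were 0.341 (interquartile range 0.193 to 0.614) and 0.352 (0.187 to 0.644). These sides were thus alike in count and ratio. A ratio of 1 means the same share of the ChIP library as of its input library, an average stretch of genome rather than a stretch without the mark. The higher of a member's flank ratios was under 0.5 in 420 members, from 0.5 to under 0.75 in 358 and from 0.75 to under 1 in 354.

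The word "without" in a description of these regions holds only for that scale. When the H3K36me3 input was instead scaled by 0.109, the ratio of ChIP to input in stretches of the genome with few tags, both flanks stayed under 1 in 112 of the 1132 (9.89%). On that scale the other members had a ratio of at least 1 on at least 1 side. The flanks were low in H3K36me3 on the scale of library totals, which does not mean that the mark was absent.

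**Figure D1:**
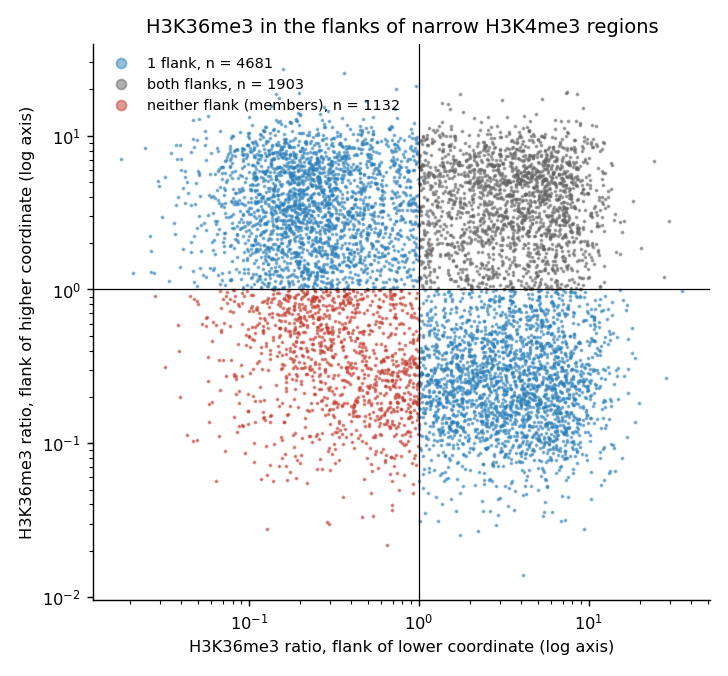
Each point is an H3K4me3 region of 1 to 3 kb, placed by the ratio of H3K36me3 ChIP to scaled input in its flank of lower coordinate (horizontal, log axis) and of higher coordinate (vertical, log axis). The black lines mark a ratio of 1. The 1132 members fill the lower left quadrant, with medians of 0.341 and 0.352, and run without a gap up to the lines that separate them from the 4681 regions with 1 flank ratio of at least 1.

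The threshold cut through a continuous spread. In 289 members the higher flank ratio was from 0.8 to under 1. The members nearest the line lay on chromosome 8 (73628001 to 73630000) and chromosome 16 (4801001 to 4802000), each with 130 ChIP and 287 input tags in the flank with the higher ratio. Nearest outside it by the ratio itself were a region on chromosome 5 (3000001 to 3003000) and another on chromosome 5 (32990001 to 32991000), where 1 flank held no tag of either H3K36me3 library and the pseudocount alone gave a ratio of 1. There were 4 such regions, and all were left out of the members. Of regions with tags in both flanks, those nearest outside were on chromosome 12 (111038001 to 111040000), with 92 ChIP and 203 input tags in the deciding flank, and chromosome 12 (4038001 to 4039000), with 73 and 161; these were picked after their values were seen.

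Members were narrow and low in H3K4me3 even among narrow regions. Of the 1132, 789 were 1 kb wide (69.7%), 264 were 2 kb and 79 were 3 kb, while 1 kb regions made up 53.7% of the class with 1 high flank and 42.6% of the class with both. A member held a median of 37.5 H3K4me3 ChIP tags (interquartile range 25 to 65), with extremes of 20 and 311. The lower end lay on the detection limit: 58 members had exactly 20 tags and 242 had fewer than 25, whereas 109 had at least 100. Per kb, the median level was 31.2 tags in members, 40.5 in regions with 1 high flank and 43 in regions with both. The order held within a width against either class: for 1 kb regions the medians were 29, 38 and 37 tags per kb, for 2 kb regions 38, 43.5 and 45, and for 3 kb regions 36.3, 42.7 and 47.

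The pooled H3K4me3 ChIP inside members stood at 12.0 times its mean over chromosomes 1 to 19, against 14.9 and 15.7 times in the other classes. The amplified input inside members stood at 0.711 times its mean, and 465 members (41.1%) held no tag of it. The median ratio of H3K4me3 ChIP to that input was 16.5 (interquartile range 7.37 to 28.0), a value that rests on 0 to 2 input tags in most members and on the pseudocount. Against the unamplified input, which the selection did not use inside a region, the median ratio was 3.83 in members, 4.74 with 1 high flank and 4.93 with both. Finding the regions against the unamplified input gave 748 members, and asking for at least 30 tags per bin gave 701.

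**Figure D2:**
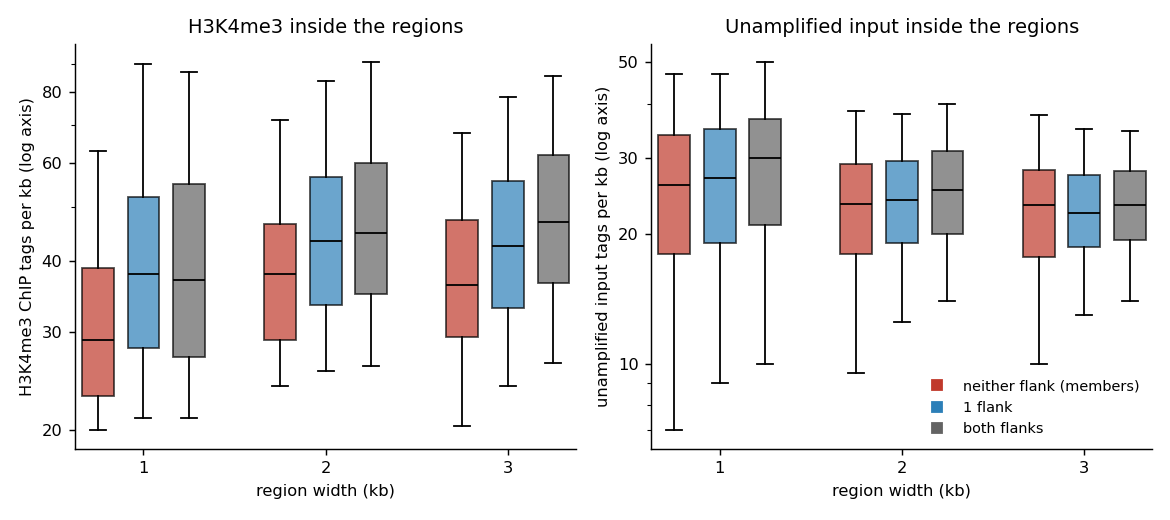
Boxes show tags per kb inside H3K4me3 regions by width (1, 2 or 3 kb) and class for the H3K4me3 ChIP (left) and the unamplified input (right), on log axes, with the median, the interquartile range and whiskers at the 5th and 95th percentiles of regions. Members had the lowest median H3K4me3 at each width (29, 38 and 36.3 tags per kb), while their unamplified input overlapped that of the other classes.

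The member with the largest excess of H3K4me3 tags over scaled input lay on chromosome 5 (132825001 to 132828000). It held 311 H3K4me3 ChIP tags against 5 of the amplified input, a ratio of 20.5 (95% interval 8.71 to 63.7). Its flank ratios were 0.595 and 0.114, and the nearest other H3K4me3 region was 1002 kb away. The next by this measure was on chromosome 11 (120003001 to 120006000), with 273 tags against 4 and a ratio of 22.6 (8.71 to 83.3).

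The remaining members of the 6 strongest were 4 regions of 2 or 3 kb. On chromosome 6 (134886001 to 134888000) there were 270 ChIP tags against 8, and the flank of higher coordinate had a ratio of 0.862. On chromosome 12 (53524001 to 53527000) there were 244 against 2, with 3 H3K36me3 ChIP tags inside. On chromosome 2 (84543001 to 84545000) there were 228 against 3, with flank ratios of 0.88 and 0.112. On chromosome 17 (34559001 to 34561000) there were 216 against 1, with flank ratios of 0.917 and 0.245. In all 6 the flanks were uneven, with 1 ratio above and the other below the medians over all members.

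The weakest by ratio were on chromosome 2 (104293001 to 104294000) and chromosome 10 (26462001 to 26463000). Each held 40 H3K4me3 ChIP and 3 input tags, which gave 4.07 with pseudocount 1. These sat just above the ratio of 4 that a bin needed.

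The next comparison asked whether H3K36me3 began farther out. The windows from 11 to 21 kb beyond each edge, which the selection did not use, were tested for an excess of ChIP over scaled input with a one-sided exact binomial test. Calls needed a Benjamini-Hochberg adjusted p under 0.05 over all windows of all H3K4me3 regions and a ratio of at least 1.5. At least 1 outer window was called in 268 of 1132 members, 23.7% (21.2 to 26.3), where the share over all H3K4me3 regions was 71.6%. It was 75.05% (73.8 to 76.3) with 1 high flank and 92.3% (91.0 to 93.4) with both, and none of these intervals overlap. The windows adjoin the flanks that chose the members, and H3K36me3 runs in long stretches, so the low share in members is not independent of the choice. At a ratio of at least 3 the shares were 10.1% of members and 53.5% of all regions, and among the 420 members with both flank ratios under 0.5 the share was 13.3%.

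Most members that had an H3K36me3 call farther out had it on 1 side. A call was made on both sides in 17 members, on the lower side alone in 134, on the higher side alone in 117 and on neither in 864. In 691 members (61.0%) both outer ratios were still under 1. Of the 285 called outer windows, 22.8% (18.1 to 28.1) belonged to a side with another H3K4me3 region within 21 kb. The same was true of 7.58% (6.45 to 8.83) of the 1979 windows not called. These intervals do not overlap.

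The member with the highest outer ratio was on chromosome 16 (87329001 to 87330000), a 1 kb region of 66 H3K4me3 ChIP tags. Its lower outer window held 743 H3K36me3 ChIP and 100 input tags, a ratio of 16.4 (13.3 to 20.4), while the adjoining flank had 49 against 145. The next, on chromosome 13 (21982001 to 21983000), had 631 against 89 in its lower outer window, a ratio of 15.7. On chromosome 7 (44930001 to 44931000) the outer windows had ratios of 14.5 on the lower side and 2.43 on the other, around flanks of 0.418 and 0.7. On chromosome 10 (90611001 to 90613000) the lower outer window reached 11.04. In all 4 the strong signal was in the lower outer window while the adjoining flank was under 1, and in 3 of them another H3K4me3 region lay 7 to 9 kb away.

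Averaged over members, H3K36me3 ChIP density stayed low through the flanks and then rose to above the genome mean. It stood at 0.509 times its mean from 6 to 11 kb, 1.12 times from 11 to 21 kb, 1.48 times from 21 to 31 kb and 1.67 times from 41 to 51 kb. The unamplified input around members was also above its mean. Set against scaled input, the pooled ratio at the same distances was 0.402, 0.877, 1.14 and 1.32. From 11 to 21 kb that ratio was thus still under 1. The step at the end of the flanks is set by the selection. Regions with 1 high flank moved the other way, from 3.50 times at 6 to 11 kb to 2.68 times at 41 to 51 kb. Those with both fell from 7.78 to 3.66. These classes were chosen on high flanks, so their fall beyond the flanks is not independent of the selection either. At 41 to 51 kb members were still the lowest of the 3 classes.

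**Figure D3:**
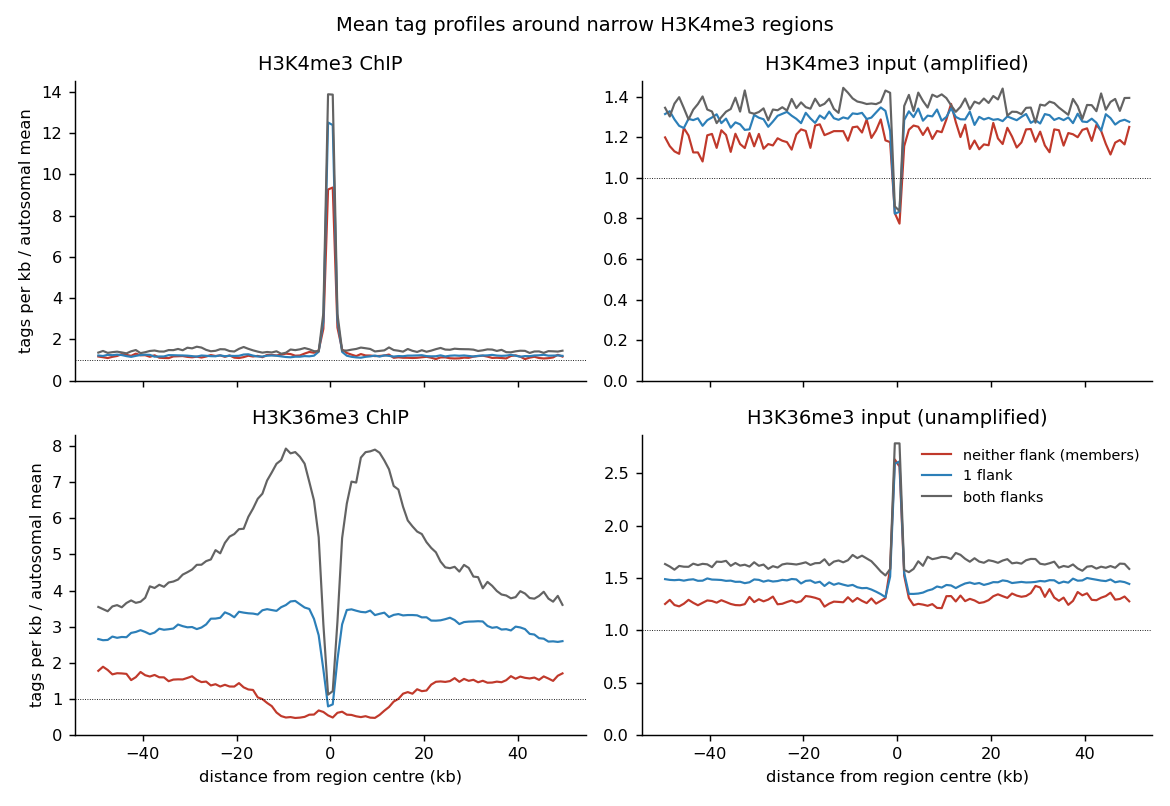
The panels show mean tags per kb divided by the mean over chromosomes 1 to 19, against distance from the region's centre in kb, for the 4 libraries and the 3 classes of narrow regions; the dotted line is the genome mean. H3K36me3 ChIP density around members, not set against input, dips below 1 in the flanks that chose them. It reaches 1.48 times the mean at 21 to 31 kb, and the unamplified input has a peak at the centre in all 3 classes. The selection used the amplified input as the denominator for H3K4me3 and so favoured low counts of it inside. Whether its trough has another cause was not tested.

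H3K36me3 domains were called in 5 kb bins with the same test, which gave 10699 domains on chromosomes 1 to 19. The nearest domain was a median of 33.5 kb from a member (interquartile range 16 to 102). It was within 11 kb for 140 members (12.4%), within 50 kb for 693 (61.2%) and within 100 kb for 845 (74.6%). Over 1 kb positions spread across the covered genome these shares were 19.9%, 35.6% and 46.2%, with a median distance of 122 kb, and over all H3K4me3 regions they were 82.3%, 93.5% and 95.8%. Members thus lay between the genome and the whole set of H3K4me3 regions, which includes them, at 50 and 100 kb. The share within 11 kb was set by the flank rule. At the far end, 76 members (6.71%) were over 500 kb from any domain and 28 over 1000 kb, the farthest at 3189 kb.

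H3K36me3 inside the members themselves was scarce. Its ChIP density there was 0.551 times the genome mean, against 0.836 with 1 high flank and 1.11 with both. The ratio of pooled ChIP to scaled input was 0.206, 0.316 and 0.408 in these classes. Medians of the ratio over single regions, with pseudocount 1, lay closer together, at 0.151, 0.183 and 0.195, so the ratio was low inside most narrow regions of any class. The unamplified input inside stood at 2.70, 2.67 and 2.76 times its own mean in these classes. A raised denominator lowers the ratio and makes a call inside harder, so the ChIP densities above are the fairer guide to the level. The flanks that chose the classes begin 1 kb away, so values inside are not independent of the choice. With the same test as above, 10 of the 1072 members with at least 10 tags were called for H3K36me3 inside, 0.933% (0.448 to 1.71). The share over all H3K4me3 regions was 2.94%, that with 1 high flank was 2.08% (1.68 to 2.53) and that with both was 2.89% (2.18 to 3.75). The share differed by width: 1 of 732 members of 1 kb was called, 4 of 261 of 2 kb and 5 of 79 of 3 kb. At 3 kb the members' share of 6.33% (2.09 to 14.2) did not differ beyond its interval from 5.57% and 4.15% in the other classes. When H3K4me3 regions were found against the unamplified input instead, 1.98% of the members and 4.84% of all regions were called inside, with at least 30 tags per bin 1.84% and 3.58%, and with background scaling of H3K36me3 3.09% and 10.4%.

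The members called inside held H3K36me3 between flanks that were under 1 by the rule. The highest ratio was in the member on chromosome 11 (120003001 to 120006000) that was also second by H3K4me3. It held 126 H3K36me3 ChIP tags and 56 of the input, which gave 4.97 (3.60 to 6.93) and an adjusted p of 7.455e-24, between flanks of 0.659 and 0.17. On chromosome 13 (51859001 to 51862000) there were 153 against 95, a ratio of 3.56 (2.73 to 4.64), between flanks of 0.229 and 0.302. The latter member had 78 H3K4me3 ChIP tags, none of the amplified input, and lay 199 kb from the next H3K4me3 region. Also high were the members on chromosome 3 (127626001 to 127628000), at 3.21 (2.15 to 4.83), and on chromosome 10 (86921001 to 86923000), at 2.93 (2.04 to 4.24), the latter named by its ratio with pseudocount 1.

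The other 6 called members are named after their values were seen. They lay on chromosome 2 (25003001 to 25006000, ratio 2.07), chromosome 2 (145915001 to 145916000, 3.05), chromosome 4 (135416001 to 135418000, 2.51), chromosome 6 (6829001 to 6832000, 1.93), chromosome 16 (29984001 to 29987000, 2.67) and chromosome 17 (34559001 to 34561000, 2.08), the last also among the 6 strongest in H3K4me3. In the first of these, the higher outer window also carried H3K36me3, with 630 ChIP tags against 254. On chromosome 4 the inside held 99 ChIP tags against 87, while the flanks had ratios of 0.144 and 0.24.

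Unamplified input inside a region and 11 to 21 kb out was not used in the selection, although the flanks between entered it as the denominator for H3K36me3. In fixed and sonicated chromatin, open stretches often yield more fragments, and input tags can also pile up at repeated sequence. The unamplified input inside members stood at 2.70 times its genome mean, 25.7 tags per kb, beside 25.4 with 1 high flank and 26.3 with both. Its density in members of a given width was likewise close to the other classes. Tested within this library against the outer windows, with a one-sided exact binomial test, an adjusted p under 0.05 and a ratio per kb of at least 2, it was called higher inside 598 of 1132 members, 52.8% (49.9 to 55.8), where the share over all H3K4me3 regions was 43.7%. The share was 44.6% (43.1 to 46.0) with 1 high flank and 36.5% (34.4 to 38.7) with both. With regions found against the unamplified input, which favours low counts of it inside, the shares were 30.5% of members and 28.3% of all regions. At a ratio of at least 4 they were 13.4% and 7.48%.

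That difference between classes came with a difference in the surroundings. From 11 to 21 kb out, the unamplified input stood at 1.29 times its mean around members, 1.45 times around regions with 1 high flank and 1.66 times around regions with both. The median ratio of inside to outer density was 2.08, 1.87 and 1.70. The input level inside members was thus close to that of the other classes, and the level around them was lower. The amplified input cannot be set beside this, since the selection used it as the denominator for H3K4me3 and so favoured low counts of it inside.

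A few members had exceptional input. The median was 25 unamplified input tags per kb, and 7 members exceeded 100. The highest was on chromosome 11 (3063001 to 3064000), with 231 input tags, 35 H3K4me3 ChIP tags and 1 tag of the amplified input. Its surroundings were denser still, with 3365 and 2412 input tags in the flanks, and the ratio of inside to outer density was 0.702. On chromosome 15 (74912001 to 74915000) the density inside was 25.3 times that outside, with 536 input tags, 134 H3K36me3 ChIP tags and 98 H3K4me3 ChIP tags. On chromosome 9 (35055001 to 35056000) it was 9.71 times, with 168 input and 102 H3K4me3 ChIP tags, and on chromosome 19 (61254001 to 61255000) 23.2 times, with 145 and 23. These 4 members passed against the amplified input. Against the unamplified input, scaled by the totals, the ratio of H3K4me3 ChIP was 0.468 on chromosome 11, 0.558 on chromosome 15 and 0.493 on chromosome 19, below an even share, and 1.83 on chromosome 9. Their part in the counts above was measured: without the 7 members the input was called in 52.6%.

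Members were spaced widely. The nearest other H3K4me3 region of any class was a median of 102.5 kb away (interquartile range 40 to 271), compared with 56 kb (24 to 124) with 1 high flank and 25 kb (11 to 50) with both. No other region lay within 500 kb of 13.2% of members (11.2 to 15.3), against 3.82% (3.29 to 4.41) and 0.841% (0.481 to 1.36), and 39 members stood over 1000 kb from any other. At the short end the order changed, with another region within 5 kb of 6.01% of members (4.69 to 7.55), 3.82% (3.29 to 4.41) with 1 high flank and 13.8% (12.3 to 15.5) with both.

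**Figure D4:**
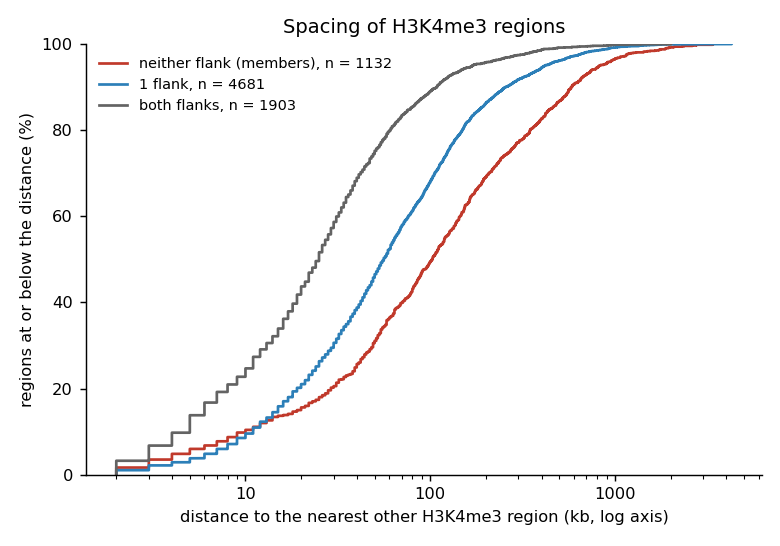
The curves give the cumulative percentage of narrow regions (vertical) whose nearest other H3K4me3 region lies at or below a distance in kb (horizontal, log axis), for the 3 classes. The curve of the 1132 members is the farthest right over most distances, with a median of 102.5 kb against 56 and 25 kb, and crosses that of the class with 1 high flank near 11 kb, where the shares were 11.1% and 10.96%.

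The most isolated member was on chromosome 5 (82095001 to 82098000), where the nearest H3K4me3 region was 3392 kb away. This member held 111 H3K4me3 ChIP tags with none of the amplified input, and its unamplified input was 4.69 times denser inside than outside. On chromosome 8 (102305001 to 102306000) the distance was 3366 kb, with 39 H3K4me3 tags and an input density 6.67 times that outside. On chromosome 14 (107795001 to 107797000) the nearest H3K4me3 region was 2760 kb and the nearest H3K36me3 domain 2763 kb away, with 88 tags and 5.73 times.

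Neither an H3K4me3 region nor an H3K36me3 domain lay within 100 kb of 239 members (21.1%). These held a median of 28.0 H3K4me3 tags per kb, beside 33.0 in the other 893. Their unamplified input per kb was 25 inside, beside 24.3. It was called higher inside than outside in 185 of the 239 (77.4%), beside 413 of the others (46.2%), with median density ratios of 3.06 and 1.89. Of the 62 members with nothing within 500 kb, 53 were called (85.5%), with a median of 21.75 input tags per kb inside and a median density ratio of 3.62. The share called and the density ratio were higher in isolated members, while the input level inside was not.

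The H3K4me3 region nearest to a member, at any distance, was a member more often than the share of members among all regions. The nearest H3K4me3 region was a member for 263 of the 1132, 23.2% (20.8 to 25.8), while members were 14.2% of all H3K4me3 regions. Most often it was a region with 1 high flank, for 60.7% (57.8 to 63.5), a class that made up 58.6%. It was a region with both flanks high for 12.3% (10.4 to 14.3), a class that made up 23.8%. Among the 126 members with a neighbour within 11 kb, that neighbour was a member for 64, a region with 1 high flank for 49, one with both high for 4 and a wide region for 9. Neighbours within 20 kb share part of their flanks, so these classes are not independent at that range. Outside the chains described next, the nearest region was a member for 229 of 1094, 20.9% (18.6 to 23.5).

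The closest pairs lay 2 kb apart, and there were 9 of them, of which the first 3 in genome order are given. On chromosome 1 (148257001 to 148258000 and 148260001 to 148261000) the members held 24 and 26 H3K4me3 ChIP tags with none of the amplified input, and the nearest H3K36me3 domain was 2492 kb away. On chromosome 1 (167837001 to 167838000 and 167840001 to 167841000) they held 38 and 26, again with none. On chromosome 3 (96330001 to 96331000 and 96333001 to 96334000) they held 20 against 0 input tags and 41 against 3. Regions this close are separate only because a gap of more than 1 bin divided them.

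Some members formed chains, runs in which each lay at most 20 kb from the next. There were 30 chains with 86 members (7.60%), of which 21 were pairs. The 7 chains of at least 4 held 38 members (3.36%), and 23 of these 38 were on chromosome 13. The largest cluster of the mouse genes for replication-dependent histones lies on chromosome 13 and a smaller one on chromosome 3. These are short genes switched on in S phase, but which genes lie at the chains was not analysed here.

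The longest chain was on chromosome 13 (21223001 to 21285000), with 7 members over 62 kb and gaps of 3 to 19 kb. From lower to higher coordinate the members held 31, 152, 38, 59, 92, 25 and 142 H3K4me3 ChIP tags, against 1, 6, 2, 1, 3, 1 and 2 of the amplified input. Their widths were 1, 2, 1, 1, 2, 1 and 3 kb, so the differences in tags partly follow width. H3K36me3 was low throughout: the whole span had 77 ChIP and 639 input tags, or 0.266 (0.207 to 0.337) after scaling. In this and the other chains, the flanks that chose the members cover most of the span. Low span ratios are therefore not independent of the selection. All 7 H3K4me3 regions in the span were members.

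The next chain was on chromosome 3 (96304001 to 96355000), with 6 members over 51 kb and 77, 69, 20, 41, 84 and 30 H3K4me3 ChIP tags. Its span had an H3K36me3 ratio of 0.290 (0.226 to 0.366), from 80 ChIP and 610 input tags. A further chain of 6 lay on chromosome 13 (23551001 to 23593000) over 42 kb. All 6 were 1 kb wide, with 37, 49, 20, 39, 41 and 21 H3K4me3 ChIP tags against 0, 1, 0, 1, 0 and 1 of the amplified input. Of the 3 longest chains it was the poorest in H3K36me3, with 10 ChIP and 266 input tags in the span, or 0.0830 (0.0393 to 0.155), and no H3K36me3 ChIP tag inside any member.

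The unamplified input was low in the members of these 3 chains. It ran from 8 to 22 tags per kb in the members of the first, from 5 to 25 in the second and from 3 to 15 in the third, with medians of 11.7, 16 and 5.5, all under the median of 25 over all members. It was called higher inside than outside in 1 of 7, 1 of 6 and 0 of 6 members. H3K36me3 was called in no outer window of these 19 members. Many of these windows overlap the flanks of neighbouring members, so this is not independent of the selection either.

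The other 4 chains of at least 4, singled out after their values were seen, were of several kinds. Those on chromosome 13 (22027001 to 22059000 and 23444001 to 23472000) had 5 members each and span ratios of 0.214 (0.139 to 0.319) and 0.118 (0.0653 to 0.198). The chain on chromosome 11 (48667001 to 48700000) had 5 members and a ratio of 0.214 (0.157 to 0.285), with 59 unamplified input tags against 22 H3K4me3 ChIP tags in 1 of them. The chain of 4 on chromosome 9 (3004001 to 3037000) stood apart. Its span had 4.42 times the mean of the unamplified input and 3.56 times that of the H3K36me3 ChIP, with a ratio of 0.813 (0.733 to 0.900), and its members held 54 to 120 unamplified input tags per kb, more than their H3K4me3 ChIP tags. Both densities were the highest among the 7 chains.

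**Figure D5:**
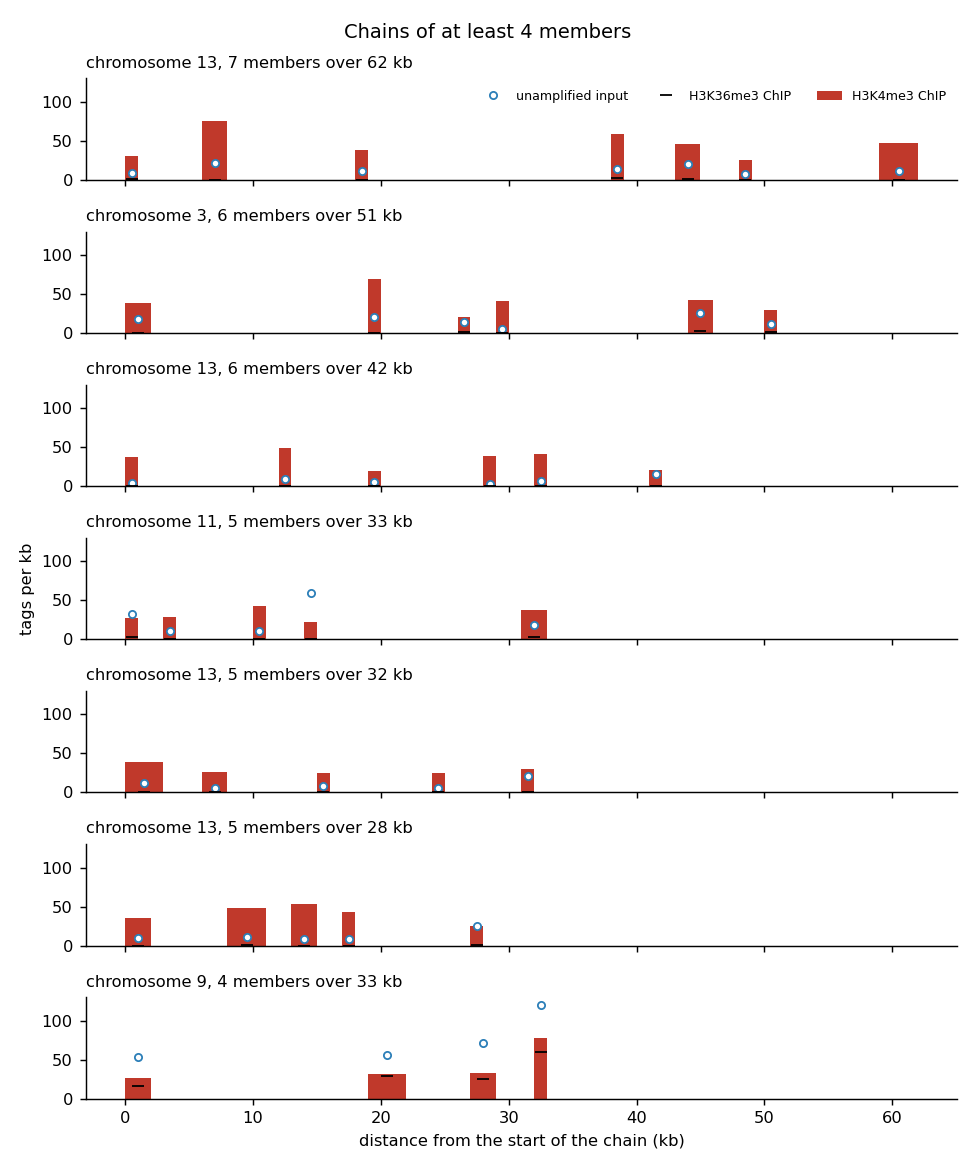
Each panel is a chain of at least 4 members, drawn by distance in kb from its start; bars show H3K4me3 ChIP tags per kb with the width of the member, circles unamplified input and dashes H3K36me3 ChIP, all in tags per kb. In the 3 longest chains the bars stand above the circles in every member, while in the chain on chromosome 9 the circles, at 54 to 120, stand above the bars.

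Chromosomes differed in their share of members. Over all 19, members were 14.7% of narrow H3K4me3 regions and 0.478 per covered Mb (0.451 to 0.507). Chromosome 13 had the highest share, 75 of 344 or 21.8% (17.6 to 26.5), and the highest density, 0.652 per Mb (0.513 to 0.818). Without its 23 members in chains of at least 4 the share was 16.2%, lower than on chromosomes 12 (20.4%, 15.9 to 25.5) and 6 (20.3%, 16.4 to 24.5). It was also lower than on chromosomes 1 (19.2%, 15.6 to 23.1), 3 (17.0% without chain members) and 16 (16.8%, 12.7 to 21.7). The lowest shares were 10.4% (7.40 to 14.0) on chromosome 17, 10.5% (8.28 to 13.2) on chromosome 11 and 10.6% (8.20 to 13.4) on chromosome 7. The interval of the whole set ran from 13.9 to 15.5 and overlapped that of chromosome 17. It did not overlap those of chromosomes 11 and 7 below it, or 1, 6, 12 and 13 above it. These intervals are not adjusted for the number of chromosomes compared.

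The H3K4me3 tags at members were spread much as at other narrow regions. For 1 kb regions the interquartile range of tag positions had a median of 586 bp in members. It was 566.5 bp with 1 high flank and 580.6 bp with both, with interquartile ranges over regions that overlapped almost entirely. Just beyond the edges, from 0 to 1 kb, the H3K4me3 ChIP around members stood at 3.01 times its mean, and it fell to 1.65 times from 1 to 2 kb and 1.23 times from 6 to 11 kb. Members differed from other narrow regions in how much H3K4me3 they held and in what lay around them. The spread of tag positions at 1 kb regions was similar.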

How the data were processed

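The authors deposited 1 list of placed tags per library, with chromosome, position and strand sign, and the submitters' processing notes name the build mm8. For the aligner, read length and filters, the method is not given in the sources used here. These lists hold no other normalised value, so all counts were made from them. Repeats of a position and sign were collapsed, which removed 27.5% of the 3464484 nuclear tags of the amplified H3K4me3 input and none elsewhere, since the other deposited lists held no repeats. This caps the height of that input. Tags were shifted 75 bp by strand. Mappability was not corrected, and 1 kb bins set the resolution. Tests, written in Python 3.11.15 with scipy 1.17.1 and tested on simulated data, needed 10 tags and adjusted p-values by Benjamini-Hochberg over all H3K4me3 regions. Ratios of single regions have Clopper-Pearson 95% intervals without pseudocount, with 3 exceptions that use pseudocount 1. These are flank ratios, ratios of H3K4me3 ChIP to the unamplified input, and ratios of inside to outer input density. The members and lists were chosen with earlier results of these data known. Named regions were the extremes of fixed measures: the 6 with the most H3K4me3 over input, the 3 most isolated, the 3 closest pairs (ties in genome order), the 4 highest each in outer H3K36me3, inside H3K36me3 and input, the 3 longest chains, those at the flank threshold and the 2 lowest in H3K4me3 ratio. Alternatives covered shift, repeats, input, thresholds, merging, bin start, flank length, scaling and pseudocount.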

Additional observations from a re-analysis of the deposited data

Results flagged for a closer look

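The selection covered chromosomes 1 to 19, and chromosome X entered no comparison above. The same rule applied there gave 59 regions, noted because it is a signal outside the data compared. They were 21.1% (16.5 to 26.4) of the 279 narrow H3K4me3 regions on X, beside 14.7% on chromosomes 1 to 19, and 0.385 per covered Mb (0.293 to 0.497) beside 0.478. The 59 held a median of 35 H3K4me3 ChIP tags, and 44 of them were 1 kb wide. The sex makeup of the pooled embryos is not given in the labels, and its part in these values was not tested.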

How the results depend on the processing

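The number of members, 1132, was 748 with the unamplified input for H3K4me3, 701 with at least 30 tags per bin, 420 with flank ratios under 0.5 and 112 with background scaling, and within 1.5 times under the other 11 alternatives. The share called in an outer window, 23.7%, was 31.2% with flanks of 1 to 6 kb and 18.99% with 1 to 21 kb. The outer window moved with the end of the flank, so these values are not for the window from 11 to 21 kb. How much of the difference came from the change of members was not tested. The share was 13.3% with flank ratios under 0.5, 33.9% with background scaling and 10.1% at a ratio of at least 3. The share called for H3K36me3 inside, 0.933%, was 1.98% with the unamplified input, 1.84% with 30 tags, 1.52% with flanks of 1 to 21 kb and 3.09% with background scaling. Over all regions it was 2.94%, and under these alternatives 4.84%, 3.58%, 2.94% and 10.4%. The share called for input, 52.8%, was 30.5% with the unamplified input and 13.4% at a ratio of at least 4. Over all regions it was 43.7%, and under these alternatives 28.3% and 7.48%. A higher ratio for a call can only lower the share called. Flank ratios under 0.5 and background scaling can only remove members. Finding regions against the unamplified input favours low counts of it inside, where the input call is made. For the remaining changes the cause was not tested. Leaving out chains of at least 4, or members over 100 input tags per kb, both chosen after seeing the data, moved none of these beyond its interval. No paired analysis was possible because each group had 1 library. The 20-tag minimum and about 1 amplified input tag per kb limit which weak regions could be found.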

Other observations

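Membership of single regions depended on the input. With the unamplified input in place of the amplified one, 567 of the 1132 members (50.1%) overlapped a member of the new set, and with bins that start 500 bp later 888 did (78.4%), although that set held 1131 regions.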
